A study of Mus musculus with 2 samples.

Results

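Integrins are paired cell-surface receptors, each made of an alpha and a beta chain, that bind extracellular matrix proteins outside the cell and the actin cytoskeleton inside it. Laminins are secreted trimers of an alpha, a beta and a gamma chain that polymerise into the sheet of a basement membrane, and nidogens link that sheet to the collagen IV network. In a skull suture these molecules lie where bone-forming cells meet their collagen matrix and where the meningeal layers and vessels meet connective tissue.

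The genes described here are all those whose symbol names an integrin alpha or beta chain, a laminin chain or a nidogen in the gene lists of both libraries, paired by Ensembl identifier. The rule took 39 of the 27514 genes common to both lists. All 39 were annotated as protein-coding genes, on 15 chromosomes. They comprise 18 integrin alpha chains, 8 integrin beta chains, 11 laminin chains and 2 nidogens. The rule reads symbols and identifiers alone.

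Single-cell RNA was counted as unique molecular identifiers (UMIs, 1 for each captured transcript molecule) in coronal sutures of wild-type C57/BL6 (C57BL/6J in the study's reporting summary) mouse embryos at E15.5 and E17.5. The E15.5 library came from 10 pooled sutures, digested in dispase and collagenase II and then cleared of dead cells. The E17.5 library came from 10 sutures of 1 litter and 3 plus 3 of another, freed with collagenase IV in 3 batches that were sorted by flow cytometry and made into libraries separately, as a technical control. They were deposited as 1 matrix, called the E17.5 library here. The earlier stage is a single library, and no label ties a barcode of the later stage to its batch, so no test between stages was made, and every interval (95%, exact) covers counting error only. Paired values with no stage named stand in the order E15.5, E17.5.

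The authors' table gives a cluster to 5340 cells at E15.5, of which 5335 were found in the deposited matrix, and to 6830 cells at E17.5. These labelled cells held 48607817 UMIs at E15.5, with a median of 8510 a cell, and 92585034 UMIs at E17.5, with a median of 12301.5. The clusters are named by position: EC1 to EC4 and LIG are ectocranial, OG1 to OG4, PO1 and PO2 osteogenic (the PO clusters proliferating), and MG1 to MG4 meningeal. Cells per cluster ran from 28 (MG1) to 1185 (EC3) at E15.5 and from 76 (PO2) to 1010 (OG1) at E17.5. Markers of osteoblasts, arachnoid and ligament were raised in the clusters OG4, MG4 and LIG. Osteoblast markers summed to 46967 CPM (UMIs of the gene over all UMIs of the same cells, scaled to 1e6) in OG4 against 113 in all other labelled cells at E15.5, and to 17520 against 377 at E17.5. These sums were mostly *Ibsp* (74554 of 84990 UMIs and 143170 of 183900), which is also among the integrin ligands below. Of the 6 osteoblast markers, 6 were raised 2-fold in OG4 at E15.5 and 5 at E17.5. Arachnoid markers summed to 617 CPM in MG4 against 38.2 at E15.5 and to 1338 against 18.9 at E17.5. Ligament markers summed to 676 CPM in LIG against 96.9 at E15.5 and to 1144 against 173 at E17.5.

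The libraries differ in more than stage. The E15.5 matrix lists 31053 genes and the E17.5 matrix 27998. At E15.5 the matrix total was below the authors' own total in all 5335 labelled cells, with a median of 8510 against 11513, whereas at E17.5 the totals were equal in all 6830. Stage, enzyme, sorting, embryos and counting therefore cannot be told apart. The barcode ends of the E17.5 cells carry a suffix from 1 to 3, with 1234, 2770 and 2826 labelled cells; no label says which batch each suffix is. Among barcodes of the cells used, 11, 42 and 41 were shared between E15.5 and suffixes 1, 2 and 3, and between 8 and 20 between suffixes.

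Of the 39 members, 22 had at least 50 UMIs in the labelled cells of each library, as did 12150 genes in all. A gene is called in a cluster when, in both libraries, its CPM there reached 2-fold or more over the pooled remaining labelled cells. By this rule 8 of the 22 members were called in at least 1 cluster, where 20.7% of all 12150 genes were. The authors drew the clusters on these same cells, so the calls describe them and test nothing. By region, taken as pooled cells, 2 members were called in the ectocranial clusters (4.23% of all genes), 1 in the osteogenic clusters (2.96%) and 3 in the meningeal clusters (2.97%). With so few members each of these counts changes by a large step when 1 gene moves.

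By single cluster, 3 members were called in MG3 (3.52% of all genes), 2 in MG2 (2.4%) and 2 in EC2 (2.43%). There was 1 each in MG1 (1.45%), OG3 (0.724%) and OG4 (3.02%). None of the 22 was called in EC1 (0.683%), EC3 (1.33%), EC4 (1.26%), LIG (0.757%), OG1 (0.296%), OG2 (0.239%), PO1 (3.96%), PO2 (3.05%) or MG4 (3.07%). The called members thus lay in EC2 among the ectocranial clusters, OG3 and OG4 among the osteogenic, and MG1 to MG3 among the meningeal.

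**Figure D1:**
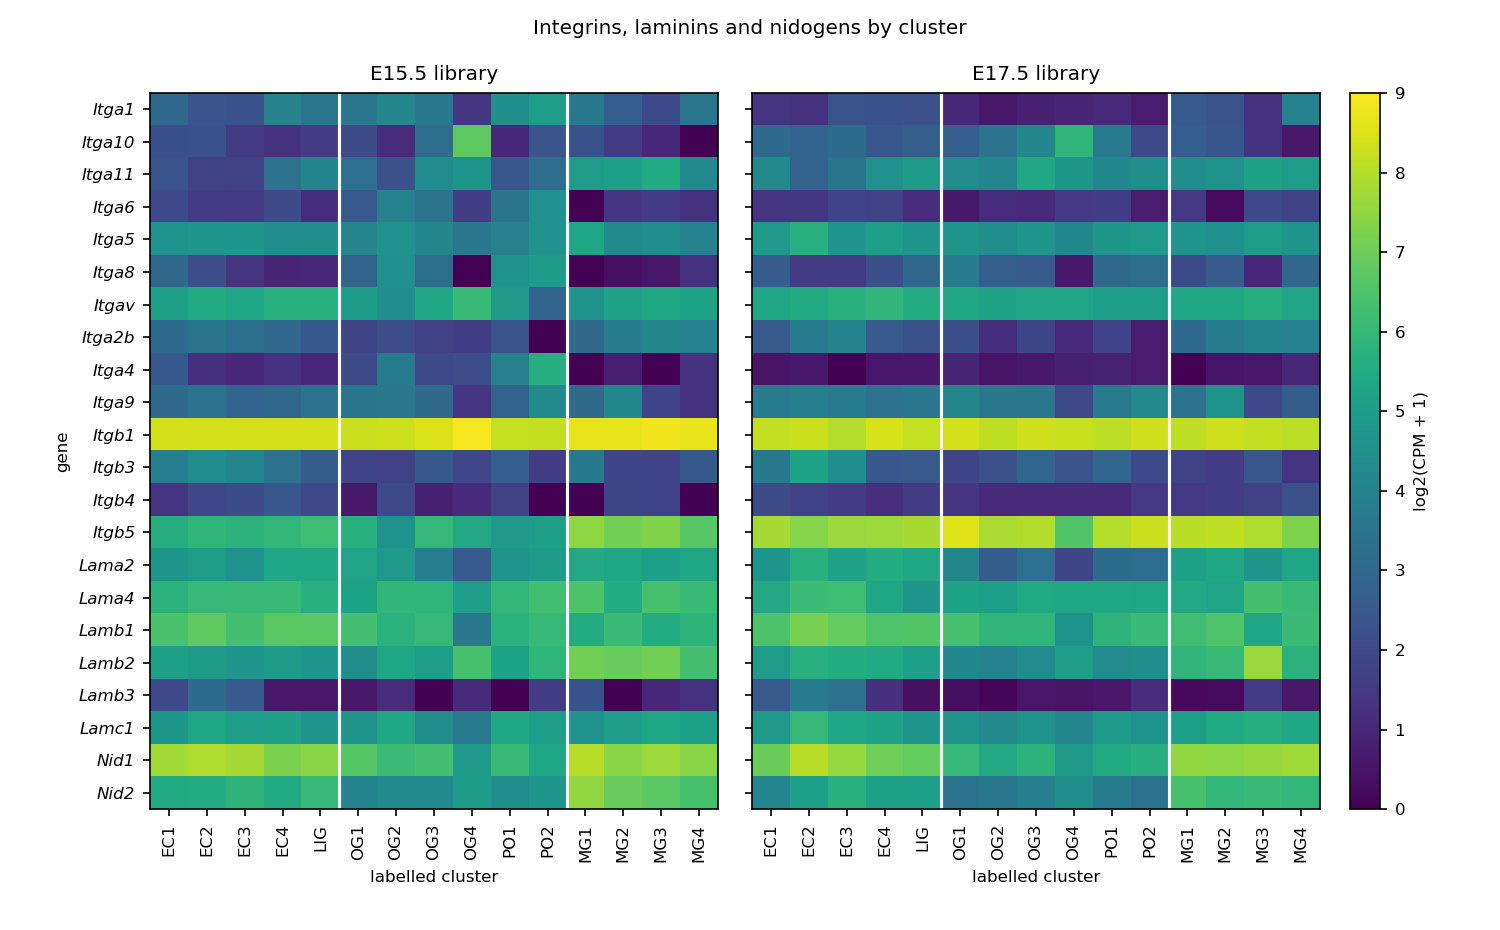
Level of each of the 22 members with at least 50 UMIs in both libraries (vertical axis) in each of the 15 clusters (horizontal axis), as log2 of CPM plus 1, with 1 panel for each library. Itgb1 is high in every cluster, and Itga10 stands out in OG4 at both stages.

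Among integrin beta chains, the beta chain shared by most alpha partners was the most abundant member in both libraries. *Itgb1* had 17021 UMIs at E15.5, or 350 CPM (345 to 355), and 28470 at E17.5, or 308 CPM (304 to 311). Its level differed by less than 2-fold between clusters, from 289 CPM in PO2 to 464 in OG4 at E15.5, and from 253 in EC3 to 349 in EC4 at E17.5. UMIs from this chemistry are counted at the 3′ end and do not scale with transcript length, so CPM of different genes are set side by side directly.

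*Itgb5*, which pairs with the alpha V chain to bind vitronectin, had the largest upward difference at E17.5 of the 22 members. It had 3078 UMIs at E15.5, or 63.3 CPM (61.1 to 65.6), and 21754 at E17.5, or 235 CPM (232 to 238). In the 3 suffixes at E17.5 it had 188, 243 and 246 CPM. Each suffix alone was above the E15.5 value. At E15.5 its level was highest in the meningeal clusters, with 142 CPM there, 58.6 in the ectocranial and 36.4 in the osteogenic clusters. At E17.5 the regions were close, at 253, 199 and 248 CPM in the same order. The osteogenic clusters held both the highest level, 380 CPM in OG1, and the lowest, 92.2 in OG4.

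*Itgb3*, the partner of the alpha V and alpha IIb chains, was called in EC2. It had 19.9 CPM (17.1 to 23) in EC2 against 8.45 in other labelled cells at E15.5, and 35.2 (31.2 to 39.6) against 4.86 at E17.5. The folds were 2.35 and 7.25, and in the 3 suffixes EC2 had 43.1, 34.1 and 30.1 CPM. EC3 was next, with 16.4 and 21.3 CPM, and the osteogenic clusters together had 3.26 and 4.62. The pooled ectocranial clusters had 14.8 and 15.9 CPM. At E17.5 this rested on EC1 to EC3: EC4 had 4.45 and LIG 4.78 CPM, below the 6.68 of OG3. Pericyte markers summed to 142 CPM in EC2 against 88.7 at E15.5 and 283 against 64 at E17.5, mostly *Kcnj8* (864 of 1311 UMIs and 1808 of 2250). Dermal fibroblast markers summed to 2553 CPM against 575, and 4095 against 157. Their part in the EC2 calls was not tested.

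Of the other beta chains, *Itgb4*, the hemidesmosome chain that pairs with alpha 6, had 130 and 154 UMIs and was called nowhere. *Itgb8*, which with alpha V binds latent TGF-beta, had 42 UMIs at E15.5 and 63 at E17.5. *Itgb6*, an epithelial chain, had 12 and 1. *Itgb2* and *Itgb7*, the leukocyte beta chains, had 10 and 15 UMIs at E15.5, and had 30 and 53 UMIs at E17.5.

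Taking all beta-chain UMIs of a region together shows how the mixture differed between the libraries. In the osteogenic clusters *Itgb1* held 88.7% (87.8 to 89.6) of beta-chain UMIs at E15.5 and 54.9% (54.4 to 55.5) at E17.5, while *Itgb5* held 9.54% and 43.7%. In the ectocranial clusters *Itgb1* held 81.3% and 58.3%, and *Itgb5* 14% and 38%. In the meningeal clusters *Itgb1* held 74.3% and 53.3%, and *Itgb5* 24.6% and 45.5%. The share of *Itgb5* was larger at E17.5 in all 3 regions. *Itgb3* held 3.53% and 3.03% in the ectocranial clusters and below 1% in the other regions.

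**Figure D2:**
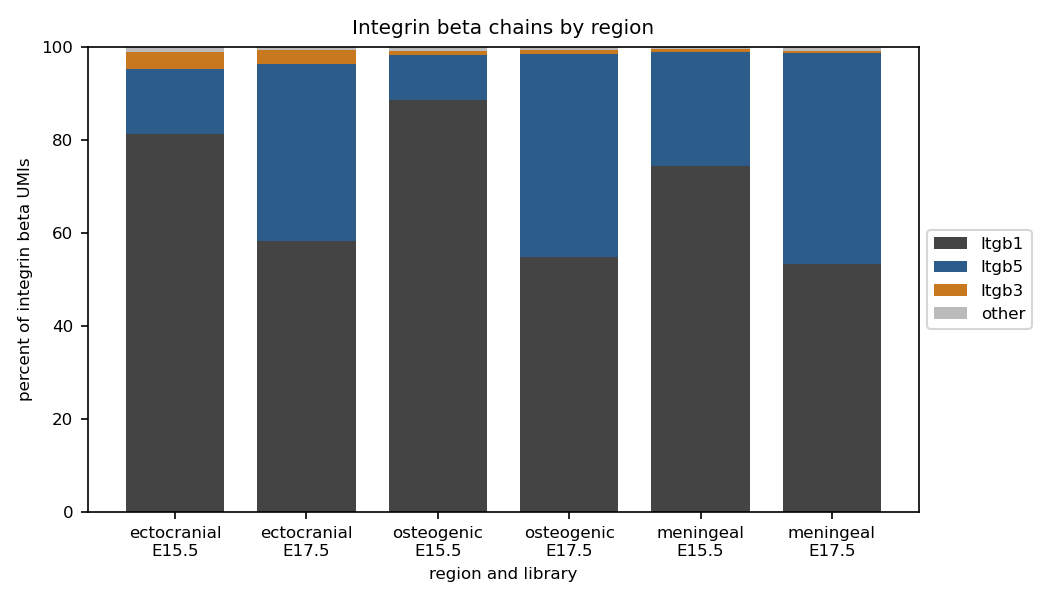
Share of all integrin beta-chain UMIs (vertical axis, percent) held by each chain, stacked for each region and library (horizontal axis). Itgb1 and Itgb5 make up nearly all of each bar, and Itgb5 goes from 9.54% to 43.7% in the osteogenic clusters.

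The collagen-binding alpha chains are *Itga1*, *Itga2*, *Itga10* and *Itga11*, all of which pair with *Itgb1*. Of the 4, 3 passed the filter and 2 were called in a cluster (20.7% of all genes). *Itga10*, a receptor for collagens that is known from chondrocytes, had the largest fold of the called members when each is ranked by the smaller of its folds in the libraries. In OG4, the mature osteoblasts, it had 197 UMIs at E15.5, or 109 CPM (94.2 to 125), against 2.5 in other labelled cells, and 618 UMIs at E17.5, or 58.9 CPM (54.3 to 63.7), against 8.06. The fold was 43.5 at E15.5 and 7.3 at E17.5.

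In the suffixes of E17.5, *Itga10* in OG4 had 65.7, 55.1 and 59.8 CPM. A UMI of *Itga10* was found in 59.5% and 61.3% of OG4 cells, at median depths of 7351.5 and 19349 UMIs. In MG4 it was found in 0.495% of cells at E17.5, at a median depth of 8905, and in 0 of 64 cells at E15.5, at a median depth of 9400. A bound of 3 counts there is 4.51 CPM, or 4.69% of cells, which limits cells with a UMI and not cells expressing the gene. At 3000 UMIs a cell, with the 160 labelled cells of E15.5 below that depth left out, the expected share in OG4 was 30.2% and 15.6%, against 0.11% in MG4 at E17.5. The paper proposes that OG2 and OG3 may both be pre-osteoblasts. In OG3 *Itga10* had 8.5 and 16.8 CPM, and in OG2 it had 5 UMIs at E15.5 and 77 at E17.5. Exons of *Gm42957* overlap *Itga10* on the same strand. That gene had 175 and 230 UMIs, and its part in the result was not tested. Chondrocyte markers also summed to more in OG4 than elsewhere, 2125 CPM against 384 at E15.5 and 432 against 141 at E17.5, mostly *Col11a2* (2997 of 3846 UMIs and 3755 of 4539). Mast-cell markers summed to 349 CPM in OG4 against 86.8 at E15.5, with 5 of 6 raised 2-fold and *Cma1* most abundant, and to 20.6 against 24.2 in the later library. Neuron markers summed to 105 CPM against 17 at E17.5, nearly all *Tubb3* (1078 of 1106 UMIs). The part of these lists in the *Itga10* result was not tested.

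*Itga11*, the fibroblast and osteoblast receptor for fibrillar collagen, was called in OG3 by a narrow margin. It had 25 UMIs there at E15.5, or 19.3 CPM (12.5 to 28.5), against 9.6, and 41.1 CPM (37.6 to 44.7) against 20.3 at E17.5. The folds were 2.01 and 2.02, and OG3 had 43.3, 40 and 40.7 CPM in the suffixes. The counting interval of the smaller fold ran from 1.29 to 3.01, and the call was lost in 8 of 11 other settings. At E15.5 the gene was higher in MG3, at 44.8 CPM (35.9 to 55.1), than in OG3. MG2 (98 UMIs of 2968225), MG1 (8 of 261939) and OG4 (44 of 1809563) were also above OG3 in that library. At E17.5 MG3 had 34.3 (26.7 to 43.3), so the order of MG3 and OG3 was not the same in both libraries.

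*Itga1*, a collagen IV and collagen I receptor of smooth muscle, vessel and fibroblast cells, had 405 and 197 UMIs. In the earlier library it was highest in PO2 at 31 CPM and had 17.1 in OG2 and 21.1 in PO1; at E17.5 these had 0.617, 0.504 and 1.1 CPM, and the highest was MG4 at 14.7. Neuron markers, nearly all *Stmn2* at E15.5, also summed to more in OG2 than elsewhere in that library, 671 CPM against 58.2, and not at E17.5, 22.6 against 27.4; their part was not tested. *Itga2*, the platelet and epithelial collagen receptor, had 33 and 7 UMIs.

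Among the receptors for the RGD motif of fibronectin and vitronectin, all 4 alpha chains passed and 1 was called in a cluster (20.7% of all genes). *Itga2b*, the platelet alpha IIb chain, was called in MG3. It had 33 UMIs there at E15.5, or 16.8 CPM (11.6 to 23.6), against 7.29, and 32 UMIs at E17.5, or 15.7 CPM (10.7 to 22.1), against 4.94. The folds were 2.3 and 3.18. In the suffixes it had 26, 10.1 and 12.4 CPM, and the counting interval of the smaller fold ran from 1.56 to 3.3. The call was lost by a random draw of 3000 UMIs a cell (1.77). Its partner *Itgb3* had 2.54 and 4.41 CPM in MG3, below its level in EC2. EC3 had a like level of *Itga2b* at E17.5, 15.2 CPM (10.3 to 21.7), and could not be told from MG3 at this depth. At E15.5 MG4 had 10 UMIs of 664515 and MG2 had 39 of 2968225, levels close to that of MG3. The log2 ratio of E17.5 to E15.5 CPM was -0.07 in MG4, -0.02 in MG2 and -0.10 in MG3. *Itga2b* was also called in the pooled meningeal clusters, so its level was not particular to MG3.

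*Itgav*, the alpha V chain, had 39.5 and 40.5 CPM and was found in every cluster. Its highest cluster was OG4 at 66.3 CPM at E15.5 and EC4 at 60.3 at E17.5. *Itga5*, the classical fibronectin receptor chain, had 22.1 and 26.2 CPM, from 11.1 in OG4 to 38.2 in MG1 at E15.5 and from 17.3 in OG4 to 49.1 in EC2 at E17.5. *Itga8*, which binds nephronectin among other ligands, had 5.23 and 5.35 CPM. Its level was highest in PO2 at E15.5, 28.9 CPM from 14 UMIs, and in OG1 at E17.5, 12 CPM. *Itgav* and *Itga5* together held much of the alpha-chain UMIs: in the ectocranial clusters 39.3% and 22.2% at E15.5, then 35.3% and 25.1%. In the osteogenic clusters they held 21.6% and 11.8% at E15.5, then 28.5% and 17.7%, *Itga10* held 12.9% and then 15.8%, and *Itga11* 6.58% and then 19.7%. The clusters of this pool differed in direction for *Itga10*: its share was 47.8% and 39.6% in OG4, 0.862% and 9.3% in OG2, and 0.707% and 10.2% in PO1. The cell mix differed too. The pool held 190 and 527 cells of OG4, 140 and 927 of OG3, 488 and 522 of OG2, and 261 and 1010 of OG1. The share of *Itga11* was 14.8% and 28.9% in OG3, and 2.59% and 15.9% in OG2. In the meningeal clusters *Itga11* held 26.6% and then 18.5%, and that pool held 28 and 423 cells of MG1.

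The chains *Itga4* and *Itga9* form a pair of related receptors for VCAM1, fibronectin variants and tenascin. Both passed, and *Itga9* was called in MG2. It had 52 UMIs there at E15.5, with an interval of 13.1 to 23 CPM, against 7.76 outside MG2. The E17.5 level was 23.3 CPM (19.2 to 28.1) against 10.8. The folds were 2.26 and 2.16. In suffix 1 the fold was 1.8, in suffix 2 it was 2.21 and in suffix 3 it was 2.37, and the counting interval of the smaller fold ran from 1.76 to 2.63. The call was lost by the expected share of cells with a UMI at 3000 UMIs a cell (1.98) and by a random draw at that depth (1.97). PO2 had as much at E15.5, 18.6 CPM (8.5 to 35.3) from 9 UMIs. Chondrocyte markers summed to 860 CPM in MG2 against 422 at E15.5 and 274 against 169 at E17.5, with 3 of 6 raised 2-fold each time. Osteoclast markers, mostly *Ctsk*, summed to 473 CPM against 216 and 663 against 333. Their part in the MG2 calls was not tested. *Itga4* had 168 UMIs at E15.5 and 53 at E17.5.

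*Itga4*, *Itga1*, *Itga6*, *Itga8* and *Itga9* were highest in PO2 at E15.5 and in other clusters at E17.5. The share of all genes highest in PO2 is not given, so the number of members there is not read as a result. PO2 holds 35 cells and 484155 UMIs at E15.5 and 76 cells and 1619530 UMIs at E17.5. *Itga4* had 47.5 CPM in PO2 at E15.5 from 23 UMIs and 0.617 at E17.5. Markers of mast cells, where *Itga4* is abundant, summed to 41.3 CPM in PO2 at E15.5 against 97.1 in the rest. Endothelial markers summed to 8.26 CPM against 26.3 and pericyte markers to 37.2 against 99.5. These 3 sums rest on 20, 4 and 18 UMIs in PO2, and the part of these lists in the *Itga4* level was not tested. Neuron markers were higher, 401 CPM against 107, with *Stmn2* at 193 of 194 UMIs and 4 of 6 markers at 0; their part was not tested.

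Among the laminin-binding alpha chains only *Itga6* passed. It had 3.95 and 1.45 CPM and was highest in PO2 (22.7 CPM, from 11 UMIs) at E15.5 and in MG3 (2.94) at E17.5. *Itga7*, the chain of muscle and pericyte cells, had 223 and 23 UMIs and so missed the filter. At E15.5 its highest cluster was OG2 at 13.2 CPM. *Itga3*, an epithelial chain, had 12 and 21 UMIs.

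None of the 5 leukocyte alpha chains passed, and their counts in labelled cells were small. *Itgal* had 6 UMIs at E15.5 and 18 at E17.5, *Itgam* 16 and 26, *Itgax* 3 and 1, *Itgae* 24 and 36, and *Itgad* 1 and 0. The 0 for *Itgad* allows up to 3 UMIs of the 92585034 counted, a level of 0.0324 CPM. These receptors of myeloid and lymphoid cells were thus scarce in the labelled cells.

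The laminin alpha chain gives a laminin its cell-binding end. *Lama2* and *Lama4* passed, and neither was called in a cluster (20.7% of all genes). *Lama4*, the chain of vessel and mesenchymal laminins, had 59.8 CPM (57.7 to 62) and 42.5 (41.2 to 43.9) in the earlier and later library. *Lama2*, the chain of muscle and mesenchymal laminins, had 29.2 CPM (27.7 to 30.8) and 22.4 (21.5 to 23.4). *Lama2* was lowest in OG4 in both libraries, at 4.97 and 2.67 CPM, and *Lama4* was lowest in OG4 at E15.5 (30.9) and in LIG at E17.5 (25.5).

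The mixture of the alpha chains differed by region, mainly at E17.5. In the ectocranial clusters *Lama2* held 32.1% (30.4 to 33.9) of laminin alpha UMIs at E15.5 and 47.1% (45 to 49.1) at E17.5. In the osteogenic clusters it held 30.8% (27.8 to 33.9) and 18.1% (16.6 to 19.6), and in the meningeal clusters 36.7% (32.8 to 40.7) and 40.8% (38 to 43.5). The regions were close at E15.5, and the osteogenic clusters had the smallest share at E17.5. Within that pool *Lama2* held 48% and 30.6% in OG1 and 13% and 6.17% in OG4, and the cell mix of the pool differed between the libraries. The OG1 share at E15.5 rests on 71 of 148 UMIs. Muscle markers summed to 802 CPM in OG1 against 18.4 at E15.5, and to 3.68 against 4.94 at E17.5. Their part in the *Lama2* share was not tested. *Lama4* held 67.6% of the osteogenic alpha chains at E15.5 and 80% at E17.5. *Lama3*, the chain of epithelial laminins, had 25 and 84 UMIs in all and held 3.17% (2.28 to 4.29) of the meningeal alpha-chain UMIs at E17.5. *Lama1* had 14 and 30 UMIs, and *Lama5*, the main chain of vessel and epithelial sheets, had 7 and 6.

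Of the laminin beta chains all 3 passed and 2 were called in a cluster (20.7% of all genes). *Lamb2*, the chain of neuromuscular and glomerular sheets, was called in MG3, in no other single cluster, and in the pooled meningeal clusters. In MG3 it had 134 CPM (119 to 151) at E15.5 against 38.6 in other labelled cells, and 199 (180 to 219) at E17.5 against 31.9. The folds were 3.48 and 6.24, and MG3 had 274, 172 and 168 CPM in the suffixes. In the pooled meningeal clusters it had 121 CPM against 31.7 at E15.5 and 80.6 against 27.4 at E17.5. MG3 was the highest cluster in both libraries. Endothelial markers summed to 83.4 CPM in MG3 against 23.8 at E15.5 and 107 against 24.7 at E17.5, mostly *Cdh5* (117 of 164 UMIs and 166 of 218). Macrophage markers summed to 53.4 CPM against 28.3 at E15.5 and 136 against 126 at E17.5, and arachnoid markers to 199 against 39.6 and 275 against 40.8. The part of these lists in the MG3 calls of *Lamb2*, *Itga2b* and *Nid2* was not tested.

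*Lamb3*, an epithelial laminin beta chain, was called in EC2 at a low level. It had 73 UMIs there at E15.5, or 7.93 CPM (6.21 to 9.97), against 2.01, and 98 UMIs at E17.5, or 12.3 CPM (10 to 15), against 0.78. The folds were 3.95 and 15.8, and the suffixes had 10.5, 12.6 and 13.5 CPM. *Lamb1*, the widespread beta chain, had 80.1 CPM (77.6 to 82.6) and 74.3 (72.6 to 76.1). It was highest in EC2 at 107 and 143 CPM and lowest in OG4 at 11.1 and 23.1.

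*Lamc1*, the gamma chain of most laminins, was the gamma chain that passed. It had 32.1 CPM at E15.5 and 29.4 at E17.5, with the lowest level in OG4 at 12.2 and 17 CPM. The highest was PO1 at 40.2 CPM at E15.5 and EC2 at 62.1 at E17.5. *Lamc3* had 19 and 21 UMIs.

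*Nid1* and *Nid2* are the nidogens that join laminin to collagen IV. *Nid1* had 8431 UMIs at E15.5, or 173 CPM (170 to 177), and 9582 at E17.5, or 103 CPM (101 to 106), and was lowest in OG4, at 28.2 and 27.9 CPM. It was highest in MG1 at E15.5 (260 CPM) and in EC2 at E17.5 (264 CPM). *Nid2* was called in MG1, MG2 and MG3. In MG1 it had 187 CPM (138 to 247) from 49 UMIs in 28 cells at E15.5, against 50.6, and 81.9 CPM (74.5 to 89.8) against 24.2 at E17.5.

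The *Nid2* folds in MG1 were 3.7 and 3.38. MG2 had 119 and 61.6 CPM, with folds of 2.53 and 2.39, and MG3 had 104 and 65.2, with folds of 2.13 and 2.43. The MG3 call was lost in 4 of 11 other settings, among them without suffix 1 (1.85), and the MG2 call in 1 (1.91). MG1 has no labelled cell in suffix 1, and *Nid2* had 83.1 and 81 CPM in suffixes 2 and 3. In the pooled meningeal clusters it had 113 CPM against 42.9 at E15.5 and 69.8 against 20 at E17.5. MG4 was lower than MG1 at E15.5, at 82.8 CPM, and at E17.5, at 60.6. Chondrocyte markers summed to 1344 CPM in MG1 against 444 at E15.5 and to 374 against 162 at E17.5. Ligament markers, mostly *Tnmd*, summed to 241 CPM in MG1 against 144 and 781 against 238. The part of these lists in the *Nid2* result was not tested. OG4 was the low point of *Nid1*, *Lamb1*, *Lamc1* and *Lama2* in both libraries. The same held for the integrin chains *Itga5* and *Itga8*, with *Itga8* at 0 UMIs in both OG4 and MG1 at E15.5. The share of all genes lowest in OG4 is not given, so this list is not read as a trait of the members.

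**Figure D3:**
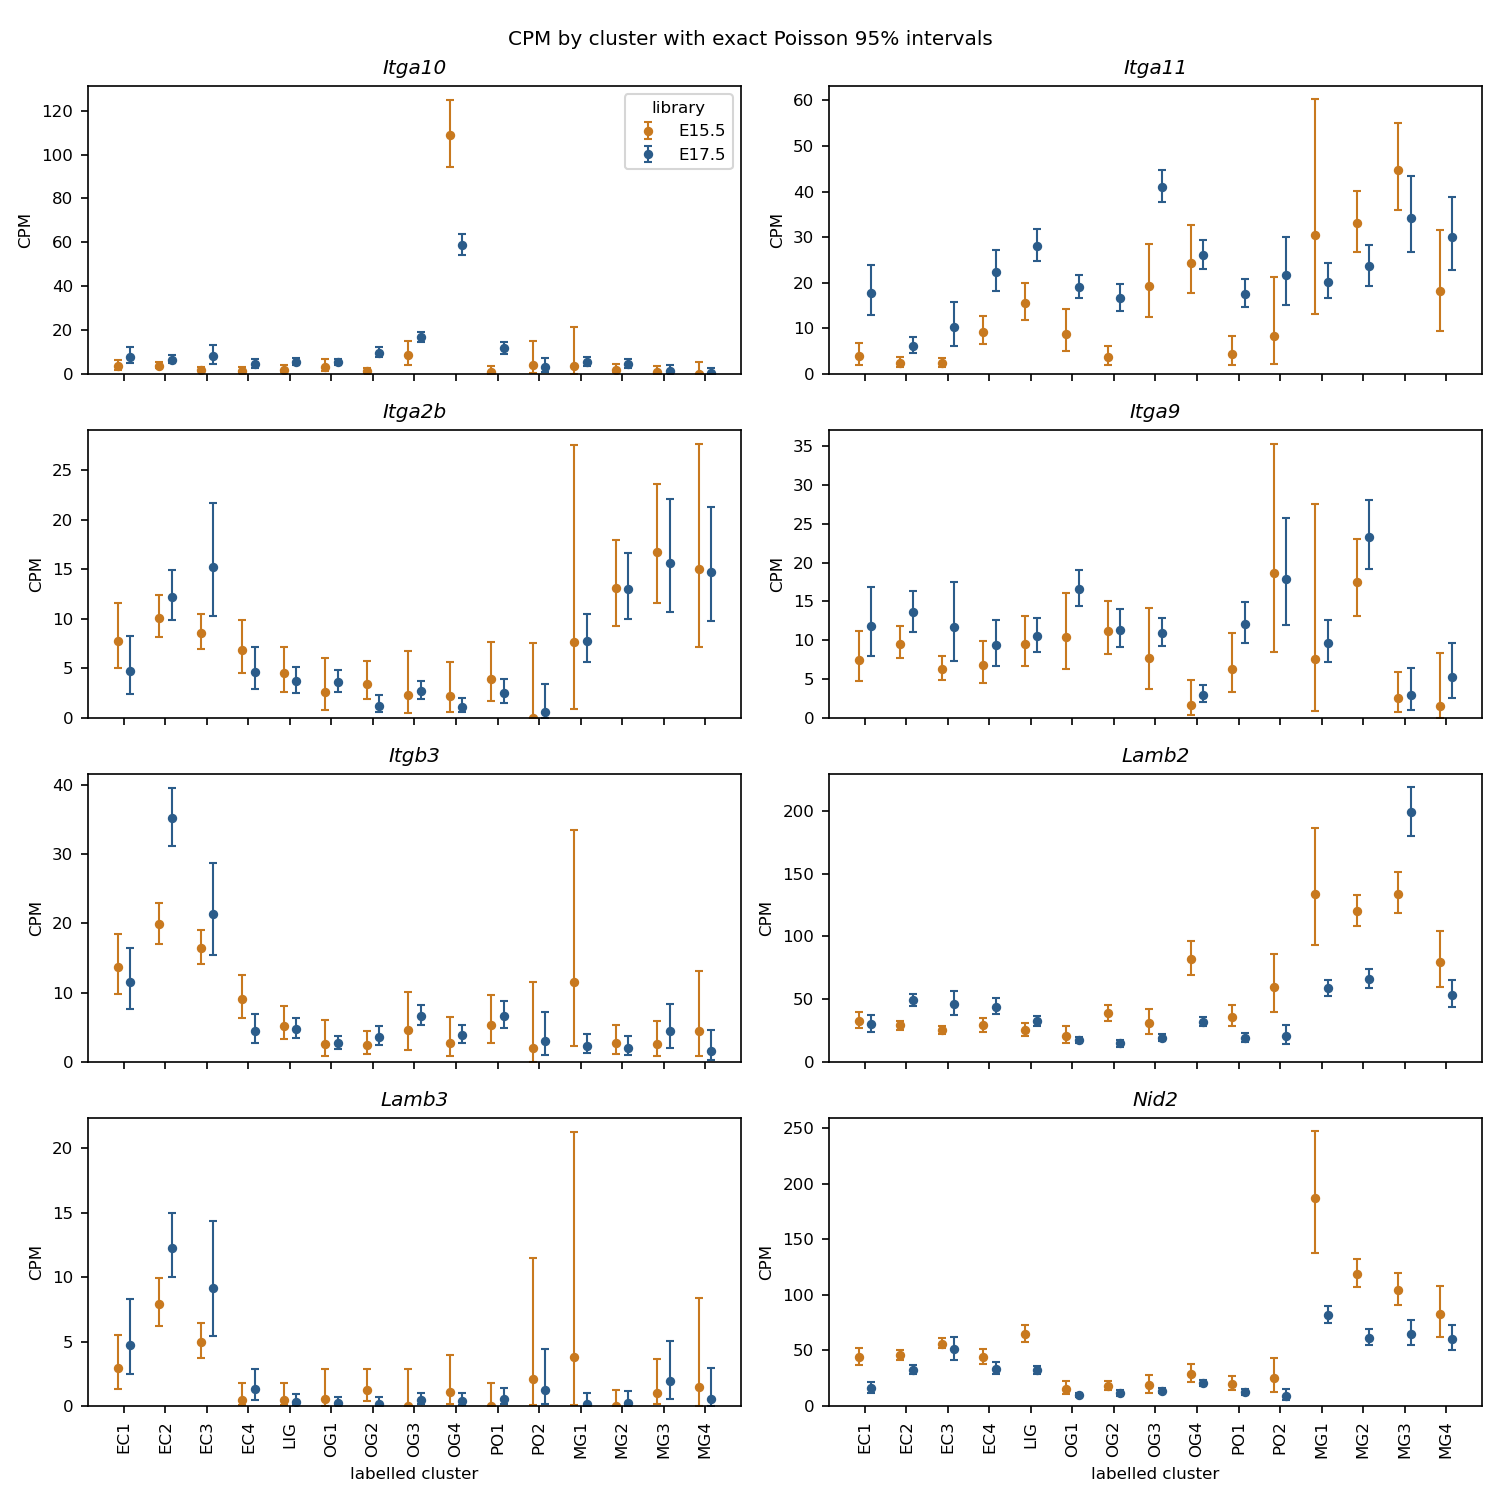
CPM of the 8 called members (1 panel each) in the 15 clusters on the horizontal axis, with E15.5 in orange and E17.5 in blue; bars are exact Poisson 95% intervals for counting error. Itga10 in OG4 has 109 and 58.9 CPM, and Lamb2 is highest in MG3 at 134 and 199.

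Chains that assemble were compared across the 15 clusters of each library by Spearman's rho, as a description over clusters that share a library and depth. Of 38 pairs listed, 24 had both chains above the filter. *Nid1* and *Nid2* was the 1 pair with rho of at least 0.5 in both libraries, at 0.72 and 0.76. Several partners of *Lamc1* had low rho at E15.5 and high rho at E17.5: 0.05 and 0.92 for *Nid1*, 0.13 and 0.79 for *Lama2*, and 0.12 and 0.82 for *Lamb2*. For *Itga6* with *Itgb1* rho was -0.54 and -0.60. Of the 24 pairs 8 had opposite signs in the libraries.

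Between the stages, the median over 15 clusters of the log2 ratio of E17.5 to E15.5 CPM, with 0.5 UMIs added to each count, was -0.03 for the 22 members and -0.01 for all 12150 genes. A gene was counted as higher when its own median was at least 1 and as lower when it was at most -1. There were 2 higher members, where 3.76% of all genes were, and 2 lower, where 8.06% were. *Itgb5* had a median of 1.73, from 0.59 to 3.34, above 0 in 15 of 15 clusters. *Itga11* had a median of 1.07, from -0.68 to 2.15, above 0 in 12 of 15, with the values below 0 in MG1, MG2 and MG3. It was no longer counted as higher by the expected share of cells with a UMI at 3000 UMIs a cell.

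On the lower side *Itga4* had a median of -2.08 and *Itga1* of -1.51. *Itga4* rests on 53 UMIs at E17.5 and fell under the filter when any 1 suffix or the cells of high doublet score were left out. *Itga1* was above 0 in 2 of 15 clusters. The remaining 18 members that passed lay between these limits, among them *Itgb1* at -0.18, *Nid1* at -0.21 and *Lamb1* at 0.10. These counts leave out *Itga7*, which missed the filter with 223 UMIs at E15.5 and 23 at E17.5. Its median was -3.52, from -5.44 to -0.67 over the 15 clusters. With at least 20 UMIs required, 3 members were lower (10.4% of all genes), *Itga7* being the one added.

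Proteins that act with the members were taken from 3 lists. Basement membrane partners had 17 of 22 genes above the filter; 9 were called in a cluster (20.7% of all genes), 2 in the ectocranial region (4.23%) and 2 in the meningeal region (2.97%). At E17.5, 0 were higher (3.76% of all genes) and 4 lower (8.06%), with a median log2 ratio of -0.16 against -0.01 over all genes. *Smoc1*, a calcium-binding basement membrane protein, had 10.5 CPM (4.24 to 21.7) at E15.5 and 144 (128 to 162) at E17.5 in MG4. The folds were 5.49 and 102, and it was also called in MG3. *Egflam* (pikachurin) had 40.6 and 21.6 CPM in MG4, with folds of 5.28 and 5.17. *Fras1*, of the Fraser complex, had 53.1 and 56.5 CPM in OG4, the cluster of *Itga10*, with folds of 6.9 and 3.76.

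Integrin adaptors, which join the beta-chain tail to actin, had 17 of 20 genes above the filter and 3 called (20.7% of all genes), 2 of them also in the ectocranial region (4.23%). They had 0 higher and 0 lower (3.76% and 8.06% of all genes) and a median of -0.07. *Lims2* had 34.4 and 61 CPM in EC2, with folds of 4.86 and 18.8, and *Zyx* (zyxin) had 183 and 232 in EC2, with folds of 2.24 and 5.25. *Parvb* (beta-parvin) had 14.7 and 18.2 CPM in OG3, with folds of 6.15 and 4.63. EC2, where 2.43% of all genes were called, thus held the called *Itgb3*, *Lamb3*, *Lims2* and *Zyx*. It also held *Col18a1* of the basement membrane partners, with folds of 2.03 and 3.57. Other integrin ligands had 15 of 16 genes above the filter and 7 called (20.7% of all genes), 3 in the osteogenic region (2.96%) and 2 in the meningeal (2.97%). Of these 15 genes 6 were higher (3.76% of all genes) and 1 lower (8.06%), with a median of 0.77. *Ibsp* and *Spp1*, RGD proteins of bone, had 41200 and 3830 CPM in OG4 at E15.5, and lower values of 13640 and 1297 at E17.5. Over the 15 clusters their median log2 ratios were 1.34 and 1.31, so both are among the 6 higher although OG4 went the other way. *Vtn* (vitronectin), a ligand of the alpha V integrins, had 179 and 331 CPM in MG4, against 0.104 and 1.82 in the other labelled cells.

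The unlabelled cells (2875 and 1937) were clustered without using the members and named from marker lists. Several members that were scarce in labelled cells were abundant in blood and vessel classes there. At E15.5, 1128 of these cells could not be named. A class has the same name in both libraries where the same marker list was raised, and its cells need not match. Of the 39 members 18 had the same highest class in both libraries, and 15 of those had at least 10 UMIs in it in both. The same share over all genes is not given, so these counts are not read as a trait of the members. Monocyte and granulocyte cells were highest for *Itgam*, *Itgal* and *Itgb2*: *Itgam* had 56.7 CPM (44.9 to 70.6) and 84.2 (63.1 to 110), *Itgal* 33.3 and 31.8, and *Itgb2* 69.4 and 164. The leading genes of that class, named for 5 of 7 raised markers in each library, included the antigen-presentation genes *H2-Aa*, *H2-Ab1* and *Cd74*, with 1 and 0 of its own markers among the 10 leading genes. In labelled cells *Itgb2* had 0.206 and 0.324 CPM. *Itgb7* was highest in mast cells, at 48.2 and 97.8 CPM. *Itgax*, *Itgad* and *Itgae* had 5 UMIs or fewer in their highest class.

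Endothelial cells (44 and 119) were highest for *Itga6* (204 and 227 CPM, against 3.95 and 1.45 in labelled cells), *Itga2* (51.4 and 16.1), *Itga5* (51.4 and 89.2), *Lama4* (190 and 152) and *Lamc1* (109 and 114). Their leading genes differed: *Ccl21a*, *Mmrn1* and *Flt4*, known from lymphatic vessels, at E15.5, and *Sox17* or *Vwf* at E17.5, while *Gpihbp1* and *Myct1* were among them in both libraries. Pericytes, 192 and 175 cells, were highest for *Itga1* (269 and 99.4 CPM) and *Itga7* (30.3 and 54.3). *Rgs5* led in both libraries, followed at E15.5 by smooth-muscle genes such as *Acta2*, *Actg2*, *Tagln* and *Mylk*, with 1 pericyte marker among the 10 leading genes, and at E17.5 by others including *Kcnj8* and *Abcc9*, with 3. The endothelial and pericyte values of the libraries are thus not of matched cells. Vessel classes thus had the highest *Itga6* and *Itga1* among the named classes of both libraries. Osteoclasts were highest for *Itgav*, at 139 and 109 CPM.

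Chondrocytes, 513 and 308 cells, were highest among the classes for *Itga10* (24.3 and 80.1 CPM) and for *Itga2b* (11.6 and 19.2). OG4 had more *Itga10* than chondrocytes at E15.5, 109 against 24.3, and less at E17.5, 58.9 against 80.1. The class was not made of like clusters: at E15.5, 241 of its cells had cell-cycle genes such as *Cdc20* and *Cenpf* leading, and clusters of 273 and 80 cells led by *Cytl1* and *Ucma* among others were left unnamed. At E17.5, 187 of its cells had *Chad*, *Cytl1* and *Comp* among the leading genes, so the chondrocyte values of the libraries are not of matched cells. *Itgb3* was highest in dermal fibroblasts, at 19.1 CPM from 25 UMIs and 41.5 from 12, close to its EC2 levels. *Itga4* was highest in mast cells at E15.5 (182 CPM) and in glia at E17.5 (86.5), a class not found at E15.5. The classes of *Nid2* and *Lamb2* differed between the libraries: both were highest in chondrocytes at E15.5, at 151 and 92.1 CPM. At E17.5 *Nid2* was highest in endothelial cells, at 105 CPM, and *Lamb2* in dermal fibroblasts, at 79.5 CPM from 23 UMIs in 16 cells.

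The 8 called members and *Itgb5* lie at these positions of the GRCm38 build. *Itga10* (ENSMUSG00000090210) is on chromosome 3 from 96645584 to 96664519, *Itga11* (ENSMUSG00000032243) on chromosome 9 from 62677826 to 62783982, and *Itga9* (ENSMUSG00000039115) on chromosome 9 from 118606690 to 118901003. *Lamb2* (ENSMUSG00000052911) lies between these on chromosome 9, from 108479736 to 108490530. *Itga2b* (ENSMUSG00000034664) is on chromosome 11 from 102453297 to 102470122 and *Itgb3* (ENSMUSG00000020689), its partner, on the same chromosome from 104608000 to 104670476. *Lamb3* (ENSMUSG00000026639) is on chromosome 1 from 193207699 to 193343878 and *Nid2* (ENSMUSG00000021806) on chromosome 14 from 19751265 to 19811787. *Itgb5* (ENSMUSG00000022817) is on chromosome 16 from 33829665 to 33949338.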

How the data were processed

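UMI counts per gene and barcode were taken as deposited, in whole numbers and with no normalization; the authors counted 10x 3′ libraries, and cluster names come from the authors' Seurat 3.2.0 table. The E15.5 file header names another software release than the stated methods. Members and lists were chosen with earlier results of these data known. UMIs were summed per gene, cluster and library and divided by all UMIs of those cells (CPM), with exact Poisson 95% intervals; shares of chains have exact binomial intervals. All labelled cells were kept, 93 of them at E15.5 outside the stated limits (1000 UMIs, 1000 genes, 7.5% mitochondrial, 3% Hbb, 3% Hba). Named members are those called, the 5 with most UMIs in each library and those under 50 UMIs; others named were picked after their values were seen. Unlabelled cells within the limits were clustered (2000 variable genes, 30 components, resolution 1) without the members. A class needed 3 markers raised 2-fold; the details of the naming rule, which also weigh the 10 leading genes, were set after the clusters were seen, with 3 forms tried. The minimum of 10 UMIs used for 15 members outside the labels was also set after their values were seen. Tools were scanpy 1.11.5, scipy 1.17.1, numpy 2.4.6, pandas 2.3.3 and matplotlib 3.10.9 under Python 3.11.15. The call rule was run on simulated counts with counting error only. It recovered 93% of genes raised 3-fold in a cluster and 99% of those raised 5-fold, and called 0.402% of unchanged genes. Calls near 2-fold and error beyond counting were not covered by that simulation.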

Additional observations from a re-analysis of the deposited data

Results flagged for a closer look

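A second identifier, ENSMUSG00000108596, carries the symbol *Itgam* in the E17.5 gene list and *Gm49368* at E15.5, so it is not a member. It had 20 UMIs in the labelled cells at E17.5, or 0.216 CPM (0.132 to 0.334), above the 0.0324 CPM (3 UMIs) that a count of 0 allows, beside 26 UMIs of *Itgam* itself. At E15.5 it had 2 UMIs. Its exons overlap those of *Itgam* on the same strand.

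*Itga1* stood on opposite sides of the other labelled cells in the 2 libraries. The difference was not tested. Of 396 comparisons of a member in a cluster or region 3 were opposite in this way, all of them of *Itga1*. In OG2 its fold was 2.27 (1.73 to 2.94) at E15.5 from 70 UMIs and 0.221 (0.0597 to 0.576) at E17.5 from 4. In PO1 it was 2.71 (1.93 to 3.72) and 0.497 (0.211 to 0.999), and in the pooled osteogenic clusters 2.22 (1.81 to 2.72) and 0.23 (0.161 to 0.322). Pericytes, in which *Itga1* was highest, had a marker sum in OG2 of 40.5 CPM against 104 at E15.5 and 31.5 against 87.6 at E17.5. Other lists changed sides as *Itga1* did. Neuron markers summed to 671 CPM in OG2 against 58.2 at E15.5 and 22.6 against 27.4 at E17.5, and in PO1 to 385 against 97.8 and then 20.8 against 27.5. At E15.5 these sums were nearly all *Stmn2* (2740 of 2752 UMIs and 785 of 787), with 4 of 6 markers at 0 in each cluster. Muscle markers summed to 109 CPM in PO1 against 46.8 at E15.5, with 3 of 5 raised 2-fold and *Actc1* most abundant (103 of 223 UMIs), and to 3.99 against 4.84 at E17.5, with 3 of 5 at 0. In OG1, part of the osteogenic pool, muscle markers summed to 802 CPM against 18.4 at E15.5, with 5 of 5 raised and *Actc1* most abundant (786 of 1542 UMIs), and to 3.68 against 4.94 at E17.5, with 4 of 5 at 0. Keratinocyte markers there summed to 403 CPM against 9.57, with 4 of 5 raised and *Krt15* most abundant (367 of 774 UMIs), and later to 0.586 against 0.595. Monocyte and granulocyte markers in OG1 summed to 74.4 CPM against 17.2 and then 29.3 against 31.1, and neuron markers to 188 against 107 and then 20.7 against 27.9. *Itga1* itself had a fold of 1.33 in OG1 at E15.5 and 0.438 at E17.5. The part of these lists in the *Itga1* result was not tested.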

How the results depend on the processing

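No paired analysis was made: E15.5 has 1 library, and the E17.5 batches are known only as suffixes. The count of members called in any cluster was 16 with no UMI filter (28.5% of all genes), and between 6 (19.7%) and 12 (44%) in every other setting tried. With no filter the meningeal count was 8 (4.81% of all genes) and the lower count 9 (21.7%), the added genes having fewer than 50 UMIs in a library. At a 1.5-fold threshold the ectocranial count was 4 (8.26% of all genes), the osteogenic 2 (7.31%) and the higher count 4 (10%). The higher count was 1 (2.53%), without *Itga11*, by the expected share of cells with a UMI at 3000 UMIs a cell. The lower count was 1 without cells of high doublet score (7.76%), 1 without suffix 1 (7.97%) and 1 without suffix 2 (6.8%), *Itga4* being under 50 UMIs each time.

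Of the 8 called members 5 stayed at 2-fold or more in 11 settings: *Itga10* (7.05 to 9.05), *Lamb3* (3.66 to 5.52), *Nid2* in MG1 (2.52 to 3.52), *Lamb2* (2.53 to 3.63) and *Itgb3* (2.26 to 3.25). *Itga9* was below in 2 (lowest 1.97), *Itga2b* in 1 (lowest 1.77) and *Itga11* in 8. For *Nid2* the settings were run in MG2 (1.91 to 2.53, below in 1) and MG3 (1.85 to 2.19, below in 4) after seeing the data. The interval of the smaller fold reached below 2 for 4 of the 8. A single random draw of 3000 UMIs a cell was added after seeing the data: it was the form first run, and the exact expected share replaced it once the draw for *Itga11* in OG3 was seen to lie far from its expectation. By that draw the fold of *Itga11* in OG3 was 0.292, the osteogenic count was 2 (2.63%) and the higher count 1 (2.85%). Free RNA was not removed.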
